A study of Drosophila melanogaster with 4 samples.

Results

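The weakest binding regions that a ChIP-seq experiment lists are those that only a lenient error rate admits. For L(3)mbt of Drosophila melanogaster these are the 1003 regions on the large autosomal arms 2L, 2R, 3L and 3R that the authors list at a false discovery rate of 3% and not at 0.5%. They are called marginal peaks here. They were selected on the authors' peak score, with the list at 0.5% as the limit, and make up 1003 of the 3658 peaks of the 3% list on these arms. Of the 914 peaks that this list holds elsewhere, 255 have the same standing, of which X carries 239, the Het scaffolds 7 and the fourth chromosome 9.

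The L(3)mbt ChIP group comprised 2 samples, of which 1 came from w1118 and 1 from Canton S, and the input group comprised 2 samples of the same strains without antibody. The material pooled several larval tissues at the third instar, namely the brain and the discs of wing, haltere and the third leg, at 25 °C. The antibody was made in guinea pig against a stretch of L(3)mbt itself, no mutant lacking the protein is among the samples, and cell types of brain and discs cannot be told apart. Each peak list is named for a group and names no strain, and whether strains were pooled in it is not given. There is thus no value per sample, no spread between replicates and no depth per library. All intervals below are 95% intervals that cover counting error only, with the peak as the unit and peaks treated as independent. Peaks lie in groups, so these intervals are likely too narrow and the p-values too small.

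L(3)mbt is a chromatin protein whose MBT domains bind methylated lysines of histone tails. It is found in fly complexes that keep genes silent, and larvae without it develop overgrown brains in which genes of the germ line are switched on. The title of the series places L(3)mbt at insulator elements, which are DNA stretches bound by architectural proteins that separate neighbouring domains of a chromosome. The genes and sequences under the marginal peaks are not analysed here, because the lists carry the chromosome names of genome release 5 and the gene table used was of release 6.

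Marginal peaks were weak by construction, since the score chose them. Their scores ran from 5.5025 to 7.4975 with a median of 6.34 (n = 1003), and those of the 0.5% peaks on the same arms ran from 7.5025 to 358.7 with a median of 15.7 (n = 2655). Both are descriptions and were not tested. The highest members were 3R:27077658-27078057 and 3R:23502764-23503163, which both scored 7.4975. They were followed by 3R:736696-737095 at 7.4925, 3R:11034643-11035042 at 7.475 and 3R:17848628-17849027 at 7.47. Just beyond the limit, the lowest 0.5% peak was 3R:20056897-20057296 at 7.5025. The regions 2L:10311953-10312352 and 2L:10474127-10474526 both scored 7.51. The step across the limit was thus a few thousandths of a unit of score, and regions on either side of it overlapped in the height of their calls in the unfiltered ChIP list. The 5 highest members matched calls of 12.02 to 16.27 in height, and the 5 lowest 0.5% peaks matched calls of 13.99 to 20.81.

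At the other end, the lowest members were 3L:19553705-19554104 at 5.5025 and 3R:14124494-14124893 at 5.505. The next were 2R:18685875-18686274 and 3R:25548901-25549300, both at 5.5075, and 3R:254223-254622 at 5.51. The member 3R:25548901-25549300 shared 155 bp with an input call, and the other 4 overlapped none. The matching unfiltered calls of these 5 members were 7.49 to 10.2 in height.

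Nearly every marginal peak sat on a call of the unfiltered ChIP list. Both lists stem from the same ChIP group, so overlap, distance and height of these calls are descriptions and no separate evidence of binding. Of the 1003, 992 (98.9%) overlapped one, against 2655 of 2655 0.5% peaks (100%). The median height of the matching call was 12.6 (quartiles 10.4 and 15.3) at marginal peaks and 35.7 (quartiles 22.6 and 84.0) at 0.5% peaks. Centres of member and call lay a median of 17 bp apart, against 6 bp at 0.5% peaks. Height alone did not decide which calls were listed. Outside the 3% list, 10511 calls remained on the arms with a median height of 6.26, and 363 of them (3.45%) were at least as high as the median call at a marginal peak. The highest unlisted call, of 479, exceeded the highest at any marginal peak, of 42.5. The 11 members without a call were looked at after their values were seen. Among these 11, 6 had a 0.5% peak centred within 1000 bp, against 172 of all 1003 members (17.1%). The 0.5% peaks beside these 6 scored from 8.28 to 56.3, the highest being 349 bp from 2L:2037798-2038197. 

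Marginal peaks were spread over the arms in proportions that did not differ detectably from those of the 0.5% peaks. 2L held 220 marginal peaks, 2R held 244, 3L held 247 and 3R held 292, which is 37.4, 38.4, 38.9 and 36.7 for every 100 peaks of the 0.5% list. The odds of lying on an arm, marginal over 0.5% peaks, were 0.99 on 2L (interval 0.82 to 1.18), 1.02 on 2R (0.86 to 1.21), 1.04 on 3L (0.87 to 1.23) and 0.96 on 3R (0.81 to 1.13). None passed Fisher's exact test (two-sided, adjusted p = 0.93 for each, Benjamini-Hochberg over 5 tests). Shifts inside these intervals were not detectable with this number of peaks.

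Density followed the same order in both lists. It was 11.5 marginal peaks per Mb on 2R (exact Poisson interval 10.1 to 13.1), 10.5 on 3R, 10.1 on 3L and 9.57 on 2L (8.35 to 10.9). The 0.5% peaks had 30.1 per Mb on 2R (27.8 to 32.5), 28.5 on 3R, 25.9 on 3L and 25.6 on 2L (23.6 to 27.7). Neighbours in this order have overlapping intervals. Even the extremes, 2R and 2L, overlap among the marginal peaks, and they do not among the 0.5% peaks. Arm lengths were taken up to the last peak of any list and sum to 96.55 Mb.

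**Figure D1:**
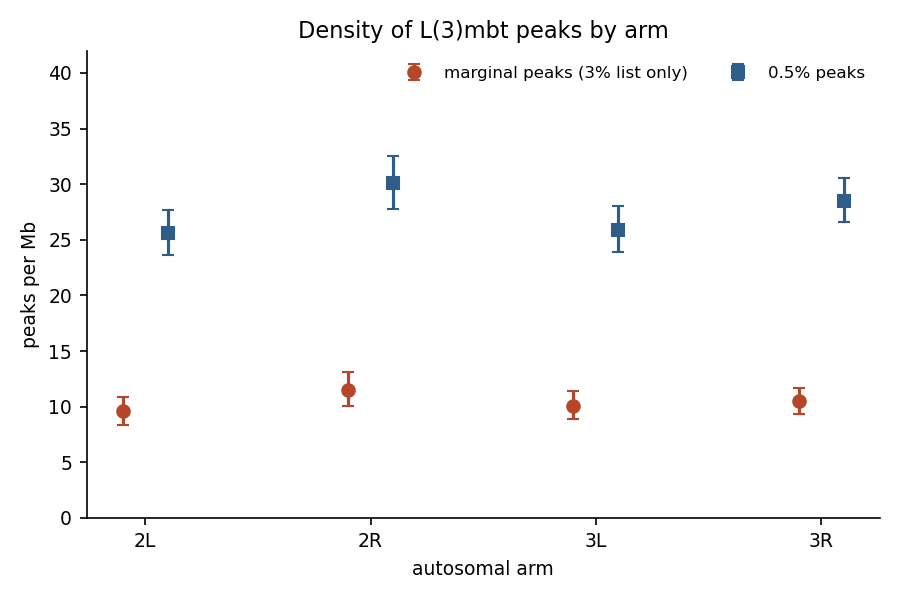
Peaks per Mb (y axis) on each autosomal arm (x axis), marginal peaks to the left of 0.5% peaks, with exact Poisson 95% intervals. Marginal peaks lie between 9.57 and 11.5 per Mb on all 4 arms, and both lists are densest on 2R.

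Along the arms, the marginal peaks again kept close to the 0.5% peaks. The 10% of each arm next to the centromere held 7.98% of the marginal peaks (exact interval 6.37 to 9.83%), against 6.63% of the 0.5% peaks (5.71 to 7.64%). The 10% at the far end held 11.7% of the marginal (9.74 to 13.8%) and 11.6% of the 0.5% peaks (10.4 to 12.9%). In the 8 steps of 10% between, marginal peaks per 100 peaks of the 0.5% list ranged from 32.0 to 40.9, and the intervals of both lists overlapped in each step.

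Marginal peaks lay close to 0.5% peaks. The median distance between centres was 6722 bp from a marginal peak to its nearest 0.5% peak, against 8088 bp from a 0.5% peak to its nearest neighbour in the same list. Within 5000 bp, 422 of 1003 marginal peaks (42.1%, exact interval 39.0 to 45.2%) had a 0.5% peak, against 968 of 2655 0.5% peaks (36.5%, 34.6 to 38.3%). Taking both lists together, 38.0% of peaks did. The odds ratio was 1.27 (1.09 to 1.47) and passed Fisher's exact test (two-sided, adjusted p = 0.0099 over 5 tests). Of all positions on the arms, 22.2% lie that close to a 0.5% peak, which is the share that placement with even chance along the arm would give, and it lies below the interval of both lists. The share of marginal peaks was above that of 0.5% peaks on every arm, at 40.9% against 37.8% on 2L, 41.0% against 37.6% on 2R, 42.5% against 36.4% on 3L and 43.5% against 34.7% on 3R. With 3R left out, the odds ratio was 1.20 (1.00 to 1.43) and the same exact test no longer passed (adjusted p = 0.26). Closeness was not particular to members. Unfiltered ChIP calls outside the 3% list had a 0.5% peak within 5000 bp in 47.5% of 10511 cases (46.6 to 48.5%). That share lies above the interval of the marginal peaks, and the difference was not tested.

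The odds ratio was highest at the shortest distances. Within 1000 bp, 172 marginal peaks (17.1%, 14.9 to 19.6%) had a 0.5% peak, against 283 of the 0.5% peaks (10.7%, 9.51 to 11.9%), where 5.23% of positions and 12.4% of both lists together did. The odds ratio there was 1.73 (1.40 to 2.14, Fisher's exact test, adjusted p = 1.4e-06). That limit was chosen after the distances had been seen, and the adjustment does not cover this choice, so the adjusted p is too small. Once peaks with a 0.5% peak within 1000 bp were set aside, 30.1% of 831 marginal peaks and 28.9% of 2372 0.5% peaks had one between there and 5000 bp. The odds ratio was then 1.06 (0.89 to 1.26) and did not pass the exact test (adjusted p = 0.93). This left out the distances at which the excess had been seen, so a fall of the ratio was partly built in. Over wider distances, a 0.5% peak lay within 10000 bp of 62.6% of marginal and 56.9% of 0.5% peaks, an odds ratio of 1.27 (1.09 to 1.48). Within 20000 bp the shares were 82.4% and 77.8%, an odds ratio of 1.33 (1.10 to 1.61), and within 50000 bp 94.5% and 94.2%, an odds ratio of 1.06 (0.77 to 1.49).

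**Figure D2:**
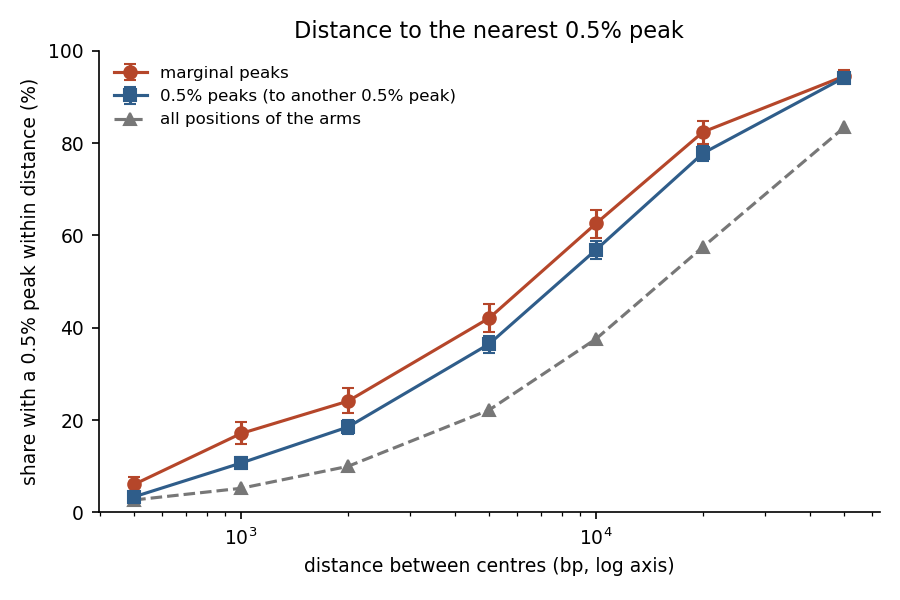
Share of peaks, in percent (y axis), with a 0.5% peak centred within a given distance in bp (x axis, log scale), for marginal peaks, for 0.5% peaks and for all positions of the arms, with exact binomial 95% intervals. At 1000 bp the shares are 17.1%, 10.7% and 5.23%, and both peak lists stay above the positions at each distance.

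The closest members touched their neighbours. Regions of 400 bp overlapped a 0.5% region at 25 marginal peaks (2.49%), against 26 of the 0.5% peaks (0.979%) that overlapped another of their list. The shortest distance was 252 bp, at 3L:19635729-19636128, a member that scored 6.6025 beside a 0.5% peak of 12.4. At 3L:4040482-4040881 it was 273 bp, beside a peak of 7.86, and at 2R:18493673-18494072 it was 281 bp, beside one of 9.81. The last of the 5 closest were 3L:257780-258179 at 302 bp and 3L:15135305-15135704 at 303 bp. Of the 1003 members, 1 shared its unfiltered ChIP call with a 0.5% peak. Among those whose regions touched one, 3 overlapped no unfiltered call at all, namely 2L:2037798-2038197, 2L:19583353-19583752 and 2R:18558350-18558749, at 349, 387 and 342 bp from a 0.5% peak.

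The 0.5% peaks beside members were not the strongest ones. The 165 peaks nearest to the 172 members within 1000 bp had a median score of 14.0 (quartiles 10.04 and 24.95, highest 161.6), against 15.7 for all 0.5% peaks on the arms. A member lay within 1000 bp of 6.88% of the 0.5% peaks that scored from 7.5 to 10 (exact interval 5.02 to 9.16%), of 7.81% of those from 10 to 20, of 5.34% of those from 20 to 50 and of 4.17% of those of 50 or more (2.60 to 6.31%). The intervals of the lowest and the highest class overlap.

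Grouped by score, the marginal peaks ran on from the weakest 0.5% peaks with no detectable break in how often they had a close neighbour. A 0.5% peak lay within 1000 bp of 19.5% of members scoring from 5.5 to 6 (15.3 to 24.4%, n = 307), of 13.5% from 6 to 6.5 (9.66 to 18.2%, n = 266), of 18.3% from 6.5 to 7 (13.4 to 24.0%, n = 219) and of 17.1% from 7 to 7.5 (12.2 to 22.8%, n = 211). Among 0.5% peaks the share was 15.0% from 7.5 to 10 (12.3 to 18.1%, n = 625), 12.1% from 10 to 20 (n = 947), 7.07% from 20 to 50 (n = 580) and 6.56% at 50 or more (4.56 to 9.09%, n = 503). The 4 classes of members thus overlap in their intervals with one another and with the class just above. The strongest class lies below each of them. Within 5000 bp, 42.1% of the members had a neighbour, against 43.8% of the 0.5% peaks from 7.5 to 10, an odds ratio of 0.93 (0.76 to 1.14) that did not pass Fisher's exact test (adjusted p = 0.93). That comparison was chosen after seeing the data, and by its interval a modest difference in either direction was not detectable. Unfiltered calls outside the 3% list had a 0.5% peak within 1000 bp in 18.9% of 10511 cases (18.1 to 19.6%). This share went up with height, at 15.3% for calls of 5 to 6 (14.3 to 16.4%), 28.8% for calls of 10 to 20 (25.9 to 31.7%, n = 970) and 86.1% at 20 or more (n = 72). Members, whose matching calls had a median height of 12.6, were at 17.1% (14.9 to 19.6%), below the unlisted calls of 10 to 20. Unlisted calls of that height are a selected set, namely those that the 3% list left out. The difference from members was not tested. Within 5000 bp, 47.5% of all unlisted calls had a 0.5% peak (46.6 to 48.5%), above the 42.1% of members.

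**Figure D3:**
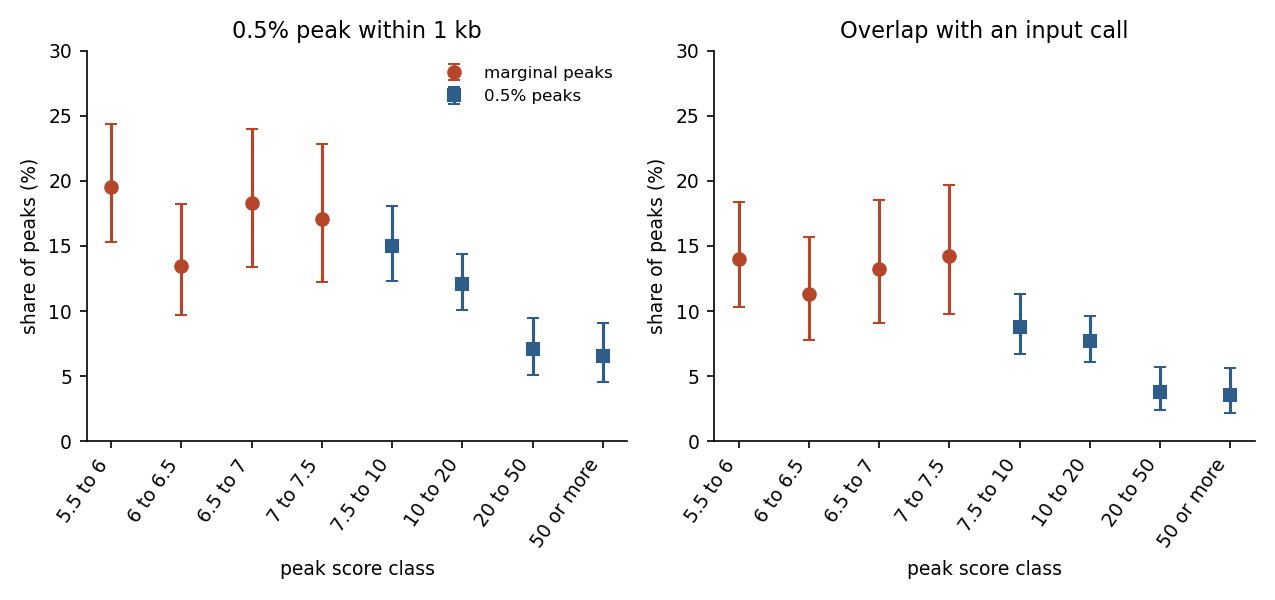
Share of peaks, in percent (y axes), by class of the authors' score (x axes), with a 0.5% peak within 1 kb (left) and with an overlapping input call (right), marginal peaks in 4 classes and 0.5% peaks in 4, with exact binomial 95% intervals. The share with a close neighbour is 13.5 to 19.5% among members and 6.56% among peaks scoring 50 or more, and the share with an input call is 11.3 to 14.2% among members and 3.58% at 50 or more.

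Marginal peaks also kept near one another. Pairs of centres were counted and divided by the number that even density along each arm gives, a ratio that does not depend on how many peaks a list holds. Within 5000 bp there were 156 pairs of marginal peaks, a ratio of 2.99 (exact Poisson interval 2.54 to 3.50), 548 pairs of a marginal with a 0.5% peak, a ratio of 1.98 (1.82 to 2.15), and 614 pairs among 0.5% peaks, a ratio of 1.68 (1.55 to 1.82). Peaks that stand in more than 1 pair are counted in each. Within 1000 bp the ratios were 5.37 (4.06 to 6.98), 3.18 (2.73 to 3.68) and 1.98 (1.67 to 2.33) in the same order. From 1000 to 2000 bp they were 4.22 (3.07 to 5.67), 1.84 (1.50 to 2.24) and 1.72 (1.43 to 2.05). From 2000 to 5000 bp they were 1.79, 1.63 and 1.56, and their intervals overlapped. From 5000 to 10000 bp they were 1.69 (1.35 to 2.08), 1.73 (1.58 to 1.90) and 1.42 (1.30 to 1.54), so that pairs of a marginal with a 0.5% peak again lay above pairs among 0.5% peaks with no overlap of intervals. From 10000 to 20000 bp they were 1.52, 1.47 and 1.35, with overlapping intervals. From 20000 to 50000 bp all of them were still above 1, at 1.36 (1.23 to 1.49), 1.23 (1.17 to 1.28) and 1.19 (1.14 to 1.23). With the 172 members beside a 0.5% peak left out, the ratio for pairs of marginal peaks within 5000 bp was 3.31 (2.74 to 3.96).

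**Figure D4:**
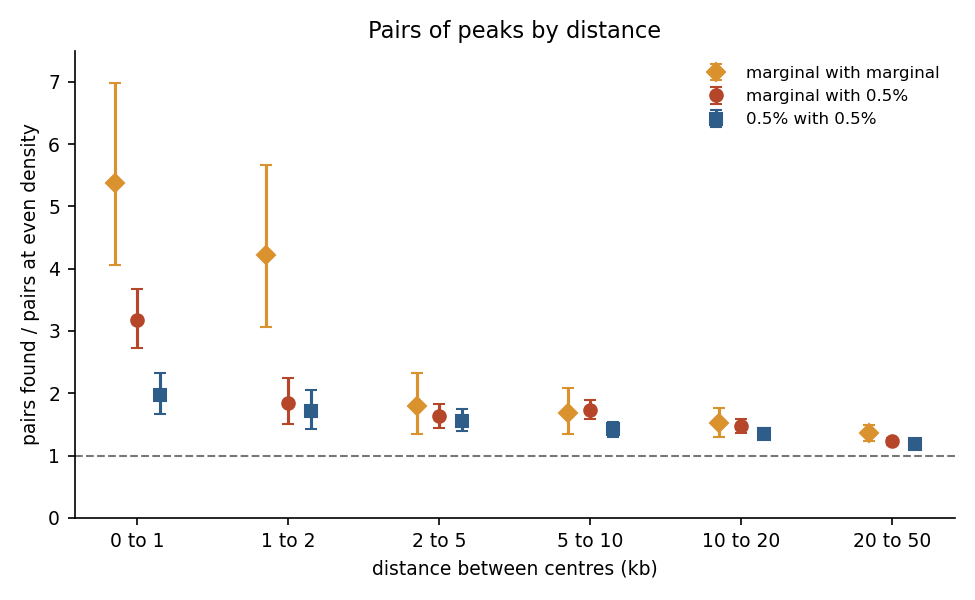
Pairs of peak centres found, divided by the pairs that even density would give (y axis), by distance in kb (x axis), with exact Poisson 95% intervals and a dashed line at 1. Below 1 kb the ratio is 5.37 for marginal with marginal, 3.18 for marginal with 0.5% and 1.98 for 0.5% with 0.5% peaks, and from 5 to 10 kb it is 1.69, 1.73 and 1.42 in the same order.

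Most members nonetheless stood without another member nearby. Joined wherever centres were 5000 bp or less apart, 766 members (76.4%) stood alone, 168 stood in pairs and 69 in groups of 3 or more. The fullest group was 2R:5474502-5481812, where 5 members with scores from 5.6025 to 6.6225 lay in 7311 bp with no 0.5% peak within 5000 bp. There were 4 groups of 4, at 2L:7825675-7827975, 3L:13015617-13018260, 2L:7422436-7426846 and 3L:9448368-9455107. The first of these, with scores from 6.645 to 7.08, had 3 peaks of the 0.5% list within 5000 bp, and the other 3, with scores from 5.57 to 7.055, had 0. Matching calls in these 5 groups were 8.53 to 22.1 in height, within the range of other members.

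On the scale of 200 kb, counts of marginal peaks were uneven. Windows held a mean of 2.09 with a variance of 3.60, which is 1.72 times the mean, and 109 of 480 windows held none, where even density gives 59.5. For the 0.5% peaks the mean was 5.52, the variance 1.99 times the mean, and 26 windows held none, where even density gives 1.92. The variance beyond that of even density, as a share of the squared mean, was 0.347 for marginal and 0.179 for 0.5% peaks, and ranged over the arms from 0.318 to 0.372 and from 0.144 to 0.209. The ranges of both lists do not overlap among the 4 arms. By contrast, median spacing stood in the same relation to even density in both lists. It was 48326 bp for marginal peaks against 66724 bp at even density, and 18033 bp for 0.5% peaks against 25207 bp, a ratio of 0.72 in each.

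Windows rich in 0.5% peaks held more members as well, but fewer for every 100 peaks of the 0.5% list. Those were 59.3 in windows with 1 or 2 peaks of that list, 44.7 with 3 to 5, 35.4 with 6 to 9 and 29.2 with 10 or more. This ratio divides by the same count that grouped the windows. Mean members per window were 0.92 (exact Poisson interval 0.59 to 1.37) in the 26 windows without a 0.5% peak, 0.94 (0.72 to 1.20) where there were 1 or 2, 1.80 (1.60 to 2.02) with 3 to 5, 2.56 (2.32 to 2.82) with 6 to 9 and 3.29 (2.87 to 3.76) with 10 or more. Input calls per window moved the same way, at 61.3, 78.2, 87.5, 91.3 and 94.2, and their part in the result was not tested. Across the 480 windows, Pearson's r between members and 0.5% peaks was 0.43, and that between members and input calls was 0.25. Between 0.5% peaks and input calls it was 0.30. These are descriptions over windows of the same peak lists, which share the mappable bases of the genome.

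Members were also denser in short stretches between neighbouring 0.5% peaks than in long ones. Every base of a short stretch lies near a 0.5% peak, so this restates the closeness given above and is no further result. Stretches shorter than 5000 bp held 45.6 members per Mb (exact Poisson interval 34.0 to 59.8), and those of 100 kb or longer held 4.88 (4.21 to 5.63), with 22.0, 15.6 and 8.90 per Mb in the 3 length classes between. Input calls were at 307, 457, 498, 470 and 393 per Mb from the shortest class to the longest. Of the 233 stretches of 100 kb or longer, 108 (46.4%) held at least 1 member. The longest, 2R:712109-1492203 near the centromere, held 8 members, among them the 5 farthest from any 0.5% peak. The farthest of all, 2R:1138436-1138835, scored 5.6875 and lay 353768 bp from a 0.5% peak. The others were 2R:1148006-1148405, 2R:1181229-1181628, 2R:1009641-1010040 and 2R:1194525-1194924, at 297679 to 344198 bp, with scores from 5.5475 to 6.6125. The next stretch, 3L:23088870-23707853, held a single member, 3L:23118830-23119229, which scored 7.4225. The third, 2R:15615089-16151212, held 8 members with scores from 5.5375 to 7.4175. Input calls were at 215, 126 and 504 per Mb in these 3 stretches.

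Input calls overlapped marginal peaks more often than 0.5% peaks, and less often than positions of the arms. An overlap of at least 1 bp was found at 132 of 1003 marginal peaks (13.2%, exact interval 11.1 to 15.4%), against 168 of 2655 0.5% peaks (6.33%, 5.43 to 7.32%), a ratio of shares of 2.08 (1.68 to 2.58). In both lists together it was 8.20%. A region of 400 bp placed at any position of the arms would overlap an input call in 24.1% of cases, so marginal peaks were at 0.55 times that share (0.46 to 0.64) and 0.5% peaks at 0.26 times. The sources used here give neither whether input was subtracted from the score that chose the members nor how the input list was called. No test was therefore made. On each arm the order was the same, with 14.1% of marginal and 6.46% of 0.5% peaks on 2L, 15.6% and 7.08% on 2R, 11.3% and 5.67% on 3L, and 12.0% and 6.16% on 3R.

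Much of the shortfall against positions lay at the centre of the peaks. No input call was centred within 100 bp of a marginal or of a 0.5% peak. How the input list was called is not known, so the calling may have fixed this absence in advance, which was not tested. By counting error alone it would allow up to 18.4 and 6.95 per Mb, which does not cover an effect of the calling. From 100 to 200 bp there were 214 input calls per Mb around marginal peaks (155 to 289) and 88.5 around 0.5% peaks (65.0 to 118). From 200 to 300 bp there were 384 (303 to 480) against 173 (140 to 212), and from 500 to 1000 bp 382 (345 to 422) against 306 (285 to 328). From 1000 to 2000 bp the values were 432 and 410 per Mb, with overlapping intervals, and the mean of the arms was 434. From 300 to 400 bp there were 364 (285 to 458) against 260 (218 to 307), with overlapping intervals. The intervals also overlapped from 400 to 500 bp, at 374 (294 to 469) against 266 (224 to 313). Between 100 and 1000 bp input calls were thus less sparse around marginal than around 0.5% peaks, with intervals apart except from 300 to 500 bp. With overlaps of 200 bp or more set aside, 12.8% of marginal peaks (10.8 to 15.0%) overlapped an input call, 6.26% of 0.5% peaks did (5.37 to 7.25%), and 14.8% of positions. The ratio of marginal peaks to positions was then 0.86 (0.73 to 1.01), so that a shortfall was not detectable, while 0.5% peaks were at 0.42 times.

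**Figure D5:**
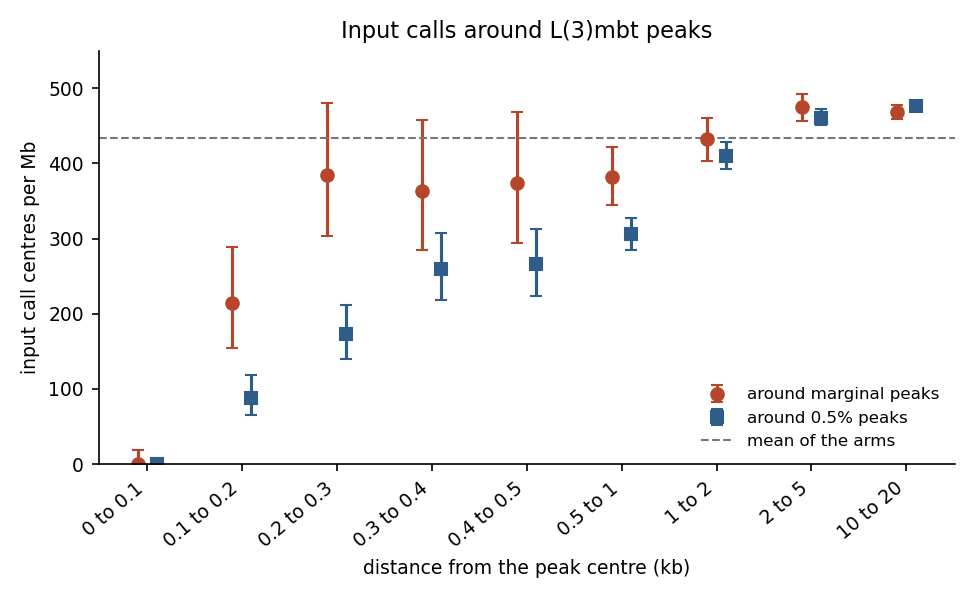
Centres of input calls per Mb (y axis) by distance in kb from the centre of marginal and of 0.5% peaks (x axis, with 5 to 10 kb not shown), with exact Poisson 95% intervals and a dashed line at the mean of the arms. From 0.2 to 0.3 kb the density is 384 around marginal and 173 around 0.5% peaks, and from 1 kb outwards both are close to each other.

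Input overlap differed little with the score inside the marginal range. It was 14.0% from 5.5 to 6 (10.3 to 18.4%), 11.3% at scores of 6 to 6.5, 13.2% at 6.5 to 7 and 14.2% at 7 to 7.5 (9.80 to 19.7%). In the 0.5% list it was 8.80% from 7.5 to 10 (6.70 to 11.3%), 7.71% from 10 to 20, 3.79% from 20 to 50 and 3.58% at 50 or more (2.13 to 5.60%). Against the 7.5 to 10 class the ratio of shares was 1.50 (1.11 to 2.02). In narrower classes, chosen after seeing the data, the share was 11.2% at scores of 7.5 to 8 (6.40 to 17.8%, n = 134), 9.74% at 8 to 8.5, 11.9% at 8.5 to 9, 5.13% at 9 to 9.5 and 4.90% at 9.5 to 10 (1.61 to 11.1%, n = 102). The share at 7.5 to 8, just above the limit, is within the intervals of the members, and no step was detectable there. Its own interval is wide, so these narrower classes could not exclude a step. Against the whole 7.5 to 10 class the share of members was higher.

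Members beside a 0.5% peak overlapped input less often than the others. Among the 172 with a 0.5% peak within 1000 bp, 11 did (6.40%, 3.24 to 11.2%), against 121 of the other 831 (14.6%, 12.2 to 17.1%), and these intervals do not overlap. Input calls were sparse around 0.5% peaks as well, at 306 per Mb from 500 to 1000 bp, and the part of this in the difference was not tested. The matching ChIP calls of both kinds of member were nearly equal in height, with medians of 12.3 and 12.7. The input calls that overlapped members were low, like input calls in general, with heights up to 18.1 and a median of 6 against 5.64 for all input calls on the arms. They shared a median of 94 bp with the member and at most 233 bp. Members with an input overlap had a median score of 6.30, against 6.35 without.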

How the data were processed

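The authors deposited 4 peak lists. Per the submitters' processing notes Bowtie was used, in a version not given, and the lists' names give pypeak as peak caller. The sources used here do not give its settings, the genome build, the scaling or whether strains were pooled. Each deposited list holds one signal value per peak. In both filtered lists it is called the score (regions of 400 bp, and scores times 400 were whole within 0.01 for 100% of peaks on the arms). In the unfiltered ChIP and input lists it is called the height (270 bp, never below 5). It serves only to describe or rank peaks within a list. The list named control is taken as input. Lists named for 0.5% and 3% are taken as those false discovery rates. Columns of other samples numbered 0.

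Starts were counted from 1 and distances run between centres. Shares of positions and pairs at even density were computed from the geometry of the lists, from the first base to the last listed peak of an arm, bases to which no read maps included. Shares have exact binomial, densities and pairs exact Poisson, and ratios of shares log-normal 95% intervals. Fisher's exact tests (two-sided) cover 4 arms and closeness to 0.5% peaks, adjusted over 5 tests, with a threshold of 0.05. Regions named are the 5 members with the highest and lowest score and the 5 nearest to and farthest from a 0.5% peak. The 3 fullest groups, those tied with them in number of members, and the 3 longest stretches are named too. Also named are the lowest 0.5% peaks and, after their values were seen, some members without an unfiltered call. The members, limits and tests were chosen with earlier results of these data known. Measures were tested on simulated data. Computation used scipy 1.17.1 with numpy 2.4.6 and pandas 2.3.3 under Python 3.11.15, and figures used matplotlib 3.10.9.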

Additional observations from a re-analysis of the deposited data

How the results depend on the processing

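Of 83 repeats over 12 results, 58 stayed within the interval, call or spread of the value reported. No paired analysis was possible because no list gives a value per strain, and no replicate could be left out for the same reason. Depth is unknown, and the number of peaks limits what can be seen. The odds ratio for a 0.5% peak within 5000 bp was 1.27 and no longer passed Fisher's exact test with members of score 6.5 or more (1.27, adjusted p = 0.14), with the stronger 50% of the 0.5% peaks as neighbours (1.27, adjusted p = 0.054), without 3R (1.20, adjusted p = 0.26) and, an alternative added after seeing the data, from over 1000 to 5000 bp (1.06). Those with a score limit and without 3R hold fewer peaks by construction. So do those without 2L, 2R or 3L, which passed at 1.30, 1.30 and 1.26. The part of peak number in these calls was not tested. Against 0.5% peaks of score 7.5 to 10, also added after seeing the data, the odds ratio turned to 0.93. In the other 11 alternatives it ran from 1.22 to 1.73 and passed. Both ends of this range came from alternatives added after seeing the data, namely regions sharing no base with a 0.5% region and a limit of 1000 bp.

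For arms, where no setting passed the test, the odds turned to 1.11 on 2L and 0.85 on 3L with members of score 6.5 or more, and to 1.00 on 2L with peaks within 1000 bp merged. Pair ratios depended on distance. Marginal with 0.5% peaks stood at 2.51, 1.40 and 1.68 (within 2000 bp, within 50000 bp and from over 1000 to 5000 bp). Marginal with marginal peaks stood at 4.80, 2.34, 1.59 and 2.40 (the same with 10000 bp second), and 0.5% with 0.5% peaks at 1.85, 1.55 and 1.29 (2000, 10000 and 50000 bp). The ratio of input overlap to positions was 0.27 with at least 50% of an input call shared and 0.86 with overlaps of 200 bp or more set aside. The share over that of 0.5% peaks was 1.50 against scores of 7.5 to 10. The excess variance was 0.534 and 0.174 for members, and 0.275 and 0.092 for 0.5% peaks, in windows of 100 and 500 kb. The cause of these shifts was not tested.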
